A study of Drosophila melanogaster with 8 samples.

Results

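The transcripts described here differed between FOXO and control hearts in the same direction in young and in older flies. A probe set was taken as a member when all 4 arrays of the FOXO cross lay below all 4 control arrays, or all 4 above them, which also fixes the direction at each age. Of 18769 probe sets on the arrays, 628 (3.35%) met that rule, 152 higher and 476 lower in FOXO. With array medians centred 561 met it, of which 60 were higher. A single gene symbol was attached to 496 of the members, several to 15 and no symbol to 117. Taking each gene by its probe set of highest mean signal, 449 of 11982 genes were members: 341 (2.85% of all genes) were lower and 108 (0.901%) were higher. The rule uses the same arrays as the comparison, so absence of overlap is given as a description, and the statistical call comes from a linear model over all probe sets.

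The series, on adult Drosophila melanogaster, asks in its title about FOXO overexpression, protein quality control and decline of the heart with age. Control hearts came from the cross labelled GMH5xyw and FOXO hearts from GMH5xFOXO, at 1 week or 5 weeks, with 2 arrays in each of the 4 groups. Hearts at 1 week are called young here and those at 5 weeks older. All groups share the GMH5 line, a driver of transgene expression in the heart, and all flies are labelled female. The sources used here do not give the dose of FOXO, the transgene or the number of hearts per array. Fat and pericardial cells had been drawn off the heart tube, and the RNA was amplified before it was labelled. Values are log2 signal per probe set, in which 1 unit is a doubling.

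FOXO is the forkhead transcription factor that insulin signalling holds out of the nucleus. When the signal is low it enters the nucleus and activates genes of stress resistance, protein turnover and growth restraint, and in flies its activity is tied to life span. The adult fly heart is a tube of contractile cardiomyocytes flanked by pericardial cells, and fat tissue, alary muscle, nerve endings and the gut lie close by.

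Some arrays stood apart or held transcripts of other tissues. The 2 arrays of FOXO at 1 week correlated at 0.963 across probe sets, against 0.995 to 0.997 in the other groups, and 2235 probe sets differed by more than 1 between them, against 17 to 93. The median of the late spermatogenesis transcripts (10 of 10 listed measured) was 8.24 and 8.34 in young controls, 10.22 and 10.48 in older FOXO hearts, and 4.91 to 6.45 on the other 4 arrays, although all flies are labelled female. Yolk and other female-specific transcripts (5 of 5) ranged from 6.18 to 6.75 in young controls and FOXO 1 week replicate 2, by their medians, and from 13.03 to 13.44 on the other 5 arrays. Oocyte transcripts (5 of 6) stood at 11.19 on FOXO 1 week replicate 1, and on no other array above 5.04. Heart muscle markers (4 of 7) had medians from 11.09 to 12.21. The sperm transcripts thus run in opposite directions at the 2 ages.

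Other marker lists differed in the same direction at both ages. Male accessory gland transcripts (6 of 7 measured) were lower in FOXO in 6 of 6 genes at each age, with a median log2 fold change of -0.68. None passed limma, 4 had an unadjusted p under 0.05, and Acp36DE, a seminal fluid protein, was a lower member at -0.90 ± 0.23 (limma adjusted p = 0.336). Their summed signal on the log2 scale was 8.12 to 8.41 in control 1 week and 6.93 to 7.38 in FOXO 1 week, and 6.92 to 7.04 in control 5 weeks and 6.57 to 6.86 in FOXO 5 weeks. That of the yolk list was higher in FOXO within each age, at 9.88 to 10.03 against 10.19 to 15.67 at 1 week and 15.43 to 15.45 against 15.60 to 15.61 at 5 weeks. By the median of the yolk list the crosses were not separated at 1 week. FOXO 1 week replicate 2 stood at 6.18, below the young controls at 6.75 and 6.59. The summed signal of the heart muscle markers was lower in FOXO within each age, at 14.38 to 14.45 against 14.24 to 14.28 and 14.18 to 14.25 against 14.03 to 14.09. The summed signal of the pericardial markers (6 of 6) was also lower in FOXO within each age. It was 14.89 to 14.99 against 14.76 to 14.85 at 1 week and 14.900 to 15.014 against 14.793 to 14.898 at 5 weeks. By the median of the pericardial list the crosses overlapped at 5 weeks. The part of these differences in the results below was not tested.

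**Figure D1:**
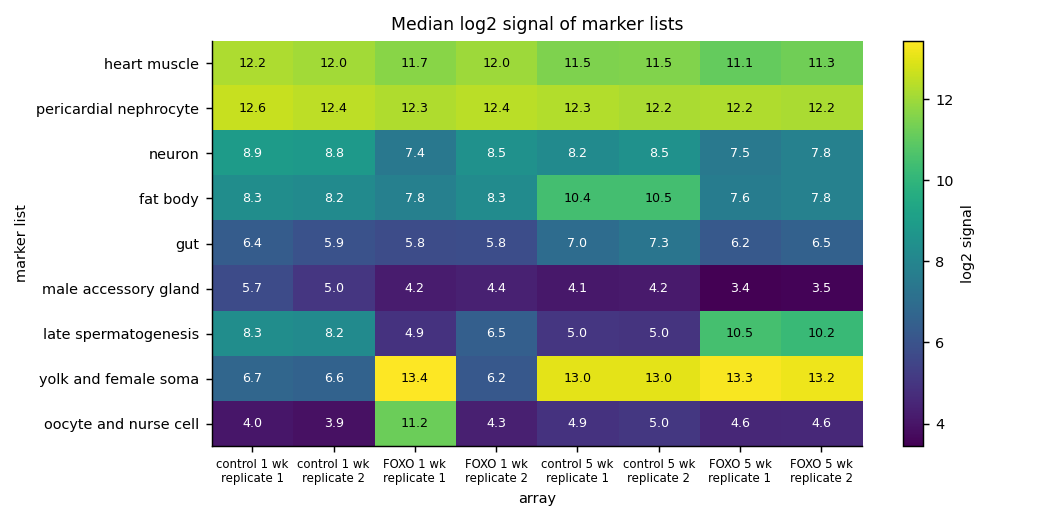
Median log2 signal (colour and printed value) of 9 marker lists, in rows, on each of the 8 arrays, in columns. Heart muscle and pericardial markers are high throughout, while sperm and yolk transcripts are high on some arrays of each cross and oocyte transcripts on 1 FOXO array.

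The foxo transcript itself did not separate the crosses. It had log2 signals of 10.68 and 10.75 in young controls, 10.32 and 10.44 in older controls, 10.46 and 10.87 in young FOXO hearts and 10.22 and 10.24 in older FOXO hearts. The shared log2 fold change was -0.10 ± 0.12 (standard error, 8 arrays; limma adjusted p = 0.816). The sources used here do not say if this probe set reads the transgene.

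The comparison of FOXO with control, with age as a covariate, asks which transcripts carry an effect common to both ages. In FOXO hearts of both ages the chemosensory receptor Ir76a fell by 3.44 on the log2 scale. The RING finger protein Rnf11 fell by 2.23 with 1 of its 2 probe sets, and the mucin Muc68Ca fell by 1.67. The lysosomal enzymes Ect3 and GILT3 rose by 1.06 and 1.30. In the moderated test of limma 20 of 18769 probe sets (0.107%) passed at an adjusted p under 0.05, 16 lower and 4 higher, and 1594 had an unadjusted p under 0.05. The 20 belonged to 17 genes with 1 symbol, 13 that fell and 4 that rose, and 2 of the probe sets carried no symbol. Among the 20, 16 were members, and in all 20 the crosses did not overlap within either age. Each of the 20 also passed the test at 1 week and the test at 5 weeks taken alone, in fits that use the same arrays. The effect did not pass a test of difference between the ages in any of them. The shared model counts such a difference as spread, so it favours probe sets with similar effects at both ages. Nothing further is read from these counts. No label states separate flies or cultures for the replicates of a group. The p-values therefore cover only the spread among these arrays, part of which can be technical. In RNA from a heart sample, fewer cells of a type and less RNA per cell cannot be told apart.

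The number of calls depends on single arrays. Without control 1 week replicate 1, control 1 week replicate 2, control 5 weeks replicate 1, control 5 weeks replicate 2, FOXO 5 weeks replicate 1 or FOXO 5 weeks replicate 2, 1 probe set passed each time, the unnamed 1624819_s_at. Without FOXO 1 week replicate 1, 19 passed, and without FOXO 1 week replicate 2, 154 did. Without both, 4278 passed, and the FOXO side then rests on the 5 weeks arrays. The 20 kept their direction in each of these fits. With all arrays, 10 of the 20 passed after quantile normalization, 5 with centred array medians, 4 with a trended and robust variance and 1 with a replicate block.

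**Figure D2:**
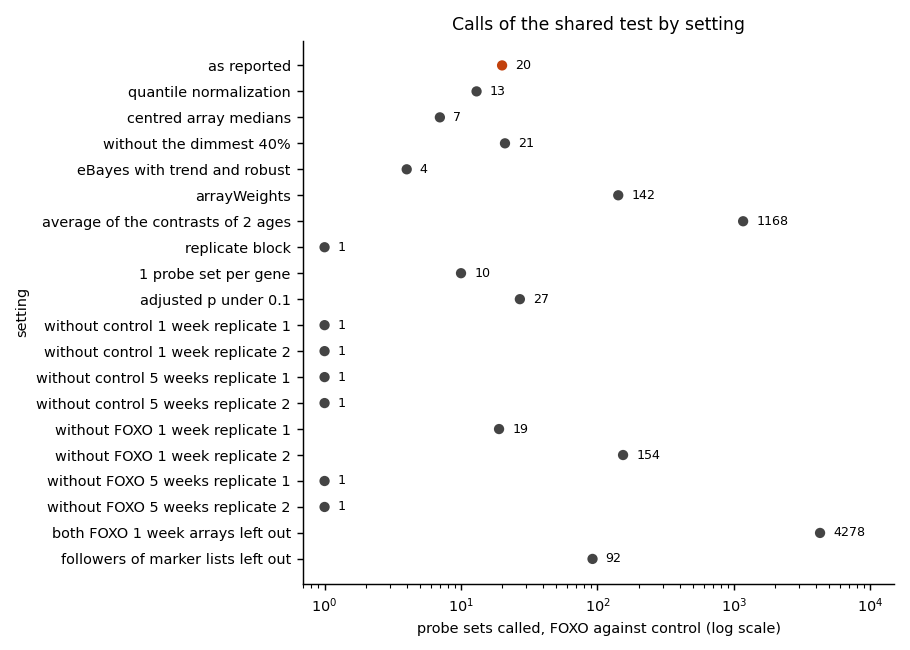
Number of probe sets that passed the shared test (horizontal, log scale) in the analysis as reported (orange, 20) and in each alternative (grey). The count is 1 in each fit that leaves out a control array or a FOXO 5 weeks array, and 4278 in the fit without both FOXO 1 week arrays.

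**Figure D3:**
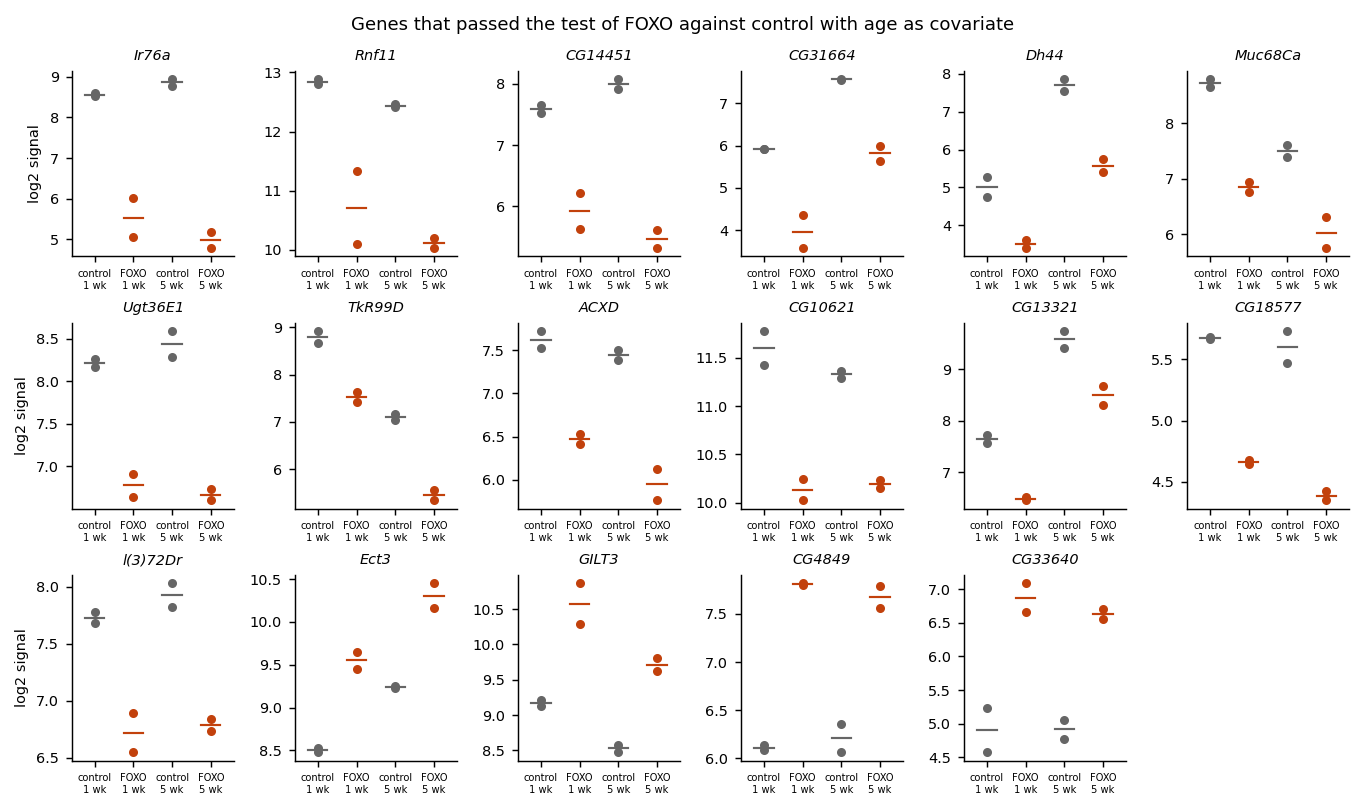
Log2 signal of the 17 genes that passed the test of FOXO against control, 1 panel per gene with its own axis, which does not start at 0. Points are single arrays (2 per group), bars are group means, grey is control and orange is FOXO. In 13 panels FOXO lies lower at both ages and in 4 higher.

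The largest difference of all members belonged to a probe set with no gene symbol, 1624819_s_at. The arrays gave log2 signals of 11.93 and 11.66 in young controls, 11.89 and 11.84 in older controls, 7.23 and 7.06 in young FOXO hearts and 7.68 on both arrays of older FOXO hearts. All control arrays lay at least 3.97 above all FOXO arrays, the widest gap among the members. The log2 fold change was -4.41 ± 0.13 (limma adjusted p = 0.000126), with -4.65 at 1 week and -4.18 at 5 weeks.

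Among named genes the deepest fall was that of Ir76a, a member of the ionotropic receptor family, which flies use mainly to sense odours and tastes. Signals on the log2 scale were 8.59 and 8.52 in young controls, 8.78 and 8.94 in older controls, 6.02 and 5.05 in young FOXO hearts and 4.79 and 5.19 in older FOXO hearts. The control arrays lay close together and every FOXO array lay far below them. The log2 fold change was -3.44 ± 0.27 (limma adjusted p = 0.0213). Of 53 measured genes of the family 5 (9.43%) were lower members, against 2.85% of all genes. They were Ir76a, Ir41a, Ir8a, Ir48c and Ir84a, and Ir7a was a higher member. Apart from Ir76a none passed the test, and 5 had an unadjusted p under 0.05 in the lower direction with Ir76a counted (7.41% of all genes did). The family's median was -0.09, against -0.02 over all genes, and 21 of 53 values were below 0 at 1 week against 46 at 5 weeks. This shift was not particular to the family. Values below 0 went from 18 to 45 of 56 odorant receptors, 14 to 46 of 56 gustatory receptors and 10 to 24 of 27 pickpocket channels. The median signal of the ionotropic receptors was only 3.27 to 3.46 by array. Lower members of the ionotropic family numbered 4 after quantile normalization and 2 with centring.

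Rnf11, a RING finger protein of the ubiquitin ligase type, fell by its brighter probe set. Its log2 signals were 12.89 and 12.80 in young controls, 12.47 and 12.41 in older controls, 10.10 and 11.33 in young FOXO hearts and 10.20 and 10.03 in older FOXO hearts. The crosses did not overlap, and FOXO 1 week replicate 2 lay nearest to the controls. The log2 fold change was -2.23 ± 0.25 (limma adjusted p = 0.049). A second probe set of Rnf11, 1641464_s_at, had a log2 fold change of -0.24 ± 0.27 (adjusted p = 0.815), so the fall was seen with 1 of its 2 probe sets.

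Muc68Ca, a mucin, fell with 2 probe sets. The brighter had log2 signals of 8.65 and 8.80 in young controls, 7.40 and 7.62 in older controls, 6.77 and 6.95 in young FOXO hearts and 5.75 and 6.31 in older FOXO hearts. It was lower in FOXO within each age and lower at 5 weeks than at 1 week within each cross, with a log2 fold change of -1.67 ± 0.16 (limma adjusted p = 0.0348). The other probe set gave -1.62 ± 0.10 (adjusted p = 0.0087). A dimmer one, at log2 signals from 3.25 to 4.90, gave -0.58 ± 0.21 and did not pass (adjusted p = 0.532).

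Ugt36E1, a UDP-glycosyltransferase of the class that conjugates sugars to foreign and internal compounds, also fell. It had log2 signals of 8.27 and 8.17 in young controls, 8.59 and 8.29 in older controls, 6.65 and 6.91 in young FOXO hearts and 6.73 and 6.60 in older FOXO hearts. The difference was -1.60 ± 0.13 (limma adjusted p = 0.0218), with a gap of 1.26 between the crosses.

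ACXD, an adenylyl cyclase of a group known from the male germline, fell at both ages. The arrays gave log2 signals of 7.53 and 7.72 in young controls, 7.51 and 7.39 in older controls, 6.41 and 6.53 in young FOXO hearts and 5.77 and 6.13 in older FOXO hearts. The log2 fold change was -1.33 ± 0.13 (limma adjusted p = 0.0348). Values of its relatives differed from this: ACXC stood at 7.50 and 7.34 in older FOXO hearts and no higher than 4.93 on the other arrays, and ACXE was a higher member at 0.38 ± 0.12 without passing the test (adjusted p = 0.478). The late spermatogenesis list had its highest summed signal in FOXO 5 weeks, at 13.87 or more on the log2 scale, followed by 12.70 to 12.73 in young controls. It lay at 8.78 to 9.91 in young FOXO hearts and 8.73 to 8.82 in older controls. The part of male germline transcripts in the ACXD values was not tested.

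A further 4 genes fell with no overlap. CG14451 had log2 signals of 7.52 and 7.65 in young controls, 8.08 and 7.92 in older controls, 6.22 and 5.62 in young FOXO hearts and 5.31 and 5.61 in older FOXO hearts, a log2 fold change of -2.10 ± 0.23 (limma adjusted p = 0.0453). CG10621 had 11.42 and 11.78 in young controls, 11.37 and 11.30 in older controls, 10.03 and 10.24 in young FOXO hearts and 10.15 and 10.23 in older FOXO hearts, a change of -1.30 ± 0.13 (adjusted p = 0.0348). Every FOXO array of CG10621 lay at least 1.05 below every control array, and its FOXO arrays spanned little. CG18577 changed by -1.11 ± 0.10 (adjusted p = 0.0348) and l(3)72Dr by -1.07 ± 0.12 (adjusted p = 0.0453), and in both the FOXO arrays lay under the lowest control, by 0.80 and 0.79. The unnamed probe set 1625955_a_at changed by -1.06 ± 0.11 (adjusted p = 0.0363).

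All 4 genes that rose had a member probe set. For CG4849 it was the dimmer one, not the probe set that represents the gene in the counts. Ect3, a beta-galactosidase of the type found in lysosomes, had log2 signals of 8.48 and 8.52 in young controls, 9.25 and 9.23 in older controls, 9.65 and 9.45 in young FOXO hearts and 10.16 and 10.45 in older FOXO hearts. It was higher at 5 weeks in each cross. The FOXO arrays at 1 week exceeded the controls at 5 weeks, as the rule for members requires. The rise was 1.06 ± 0.10 (limma adjusted p = 0.0348), with 1.05 at 1 week and 1.07 at 5 weeks.

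GILT3 belongs to the family of thiol reductases that open disulfide bonds of proteins in the lysosome. Signals on the log2 scale were 9.21 and 9.13 in young controls, 8.47 and 8.58 in older controls, 10.86 and 10.29 in young FOXO hearts and 9.62 and 9.81 in older FOXO hearts. It rose by 1.30 ± 0.15 (limma adjusted p = 0.049), and its signal was lower at 5 weeks in each cross, the opposite of Ect3.

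CG33640 had log2 signals of 5.24 and 4.57 in young controls, 5.06 and 4.77 in older controls, 6.67 and 7.09 in young FOXO hearts and 6.56 and 6.70 in older FOXO hearts. It rose by 1.84 ± 0.19 (limma adjusted p = 0.0348), the largest rise that passed, and the crosses were 1.32 apart. CG4849 rose with 1 probe set, from 6.06 to 6.36 on the control arrays to 7.56 to 7.82 on the FOXO arrays, by 1.58 ± 0.12 (adjusted p = 0.0185). The brighter probe set of CG4849 gave 0.21 ± 0.29 (adjusted p = 0.844), so the 2 probe sets of this gene disagree.

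Another 4 genes passed the test although their crosses overlapped once the ages were put together, since their signal also differed between the ages. They fall outside the rule for named genes and were picked out after their values were seen. Dh44, a diuretic neuropeptide related to corticotropin-releasing factor, had log2 signals of 4.75 and 5.28 in young controls, 7.86 and 7.54 in older controls, 3.61 and 3.40 in young FOXO hearts and 5.40 and 5.75 in older FOXO hearts. It was lower in FOXO within each age and higher at 5 weeks in each cross, and its log2 fold change was -1.82 ± 0.20 (limma adjusted p = 0.0462). TkR99D, a receptor for tachykinin neuropeptides, had 8.92 and 8.67 in young controls, 7.18 and 7.04 in older controls, 7.63 and 7.43 in young FOXO hearts and 5.56 and 5.34 in older FOXO hearts. It changed by -1.46 ± 0.13 (adjusted p = 0.0348) and its signal was lower at 5 weeks in each cross. CG31664 changed by -1.85 ± 0.18 (adjusted p = 0.0348) and CG13321 by -1.12 ± 0.13 (adjusted p = 0.049), both with higher signal at 5 weeks in each cross.

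Just outside the threshold of 0.05 lay dmrt93B, a transcription factor related to doublesex, at -1.28 ± 0.15 (limma adjusted p = 0.0518), and CG12818 at -1.18 ± 0.14 (adjusted p = 0.0518). Just inside it lay Rnf11, GILT3 and CG13321, each at an adjusted p of 0.049. With a threshold of 0.1, 27 probe sets passed.

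Members that were higher in FOXO without passing included CG4306, with log2 signals of 7.27 to 7.45 on the control arrays, 8.58 and 10.22 in young FOXO hearts and 9.60 and 9.37 in older FOXO hearts. Its log2 fold change was 2.06 ± 0.32 (limma adjusted p = 0.148), the largest among higher members, and its FOXO 1 week replicates lay far apart. The others of the 6 with the smallest p were CG14621 (1.28 ± 0.21, adjusted p = 0.157), HisT (1.04 ± 0.17, adjusted p = 0.15), CG7695 (0.87 ± 0.12, adjusted p = 0.134), CG5056 (0.77 ± 0.12, adjusted p = 0.137) and Ak3, a mitochondrial adenylate kinase (0.56 ± 0.09, adjusted p = 0.162). That none of the 6 overlapped between the crosses follows from the rule for members.

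The ages were then compared through their own contrasts. FOXO against control passed for 813 probe sets at 1 week (4.33%) and for 1956 at 5 weeks (10.4%), and the difference between the effects passed for 1766 (9.41%). The contrasts use different arrays and share 1 estimate of the spread. Of these calls 43 were shared in the same direction, 35 lower and 8 higher, which is 5.29% of the calls at 1 week and 2.2% of those at 5 weeks. Far more, 608, passed at both ages in opposite directions. Over all probe sets the effects at the 2 ages correlated at -0.522, given as a description across probe sets measured on the same arrays, which, as above, hold sperm transcripts that were high in control 1 week and FOXO 5 weeks. Of the 43, 38 were members, and all 20 probe sets of the shared test were among them.

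**Figure D4:**
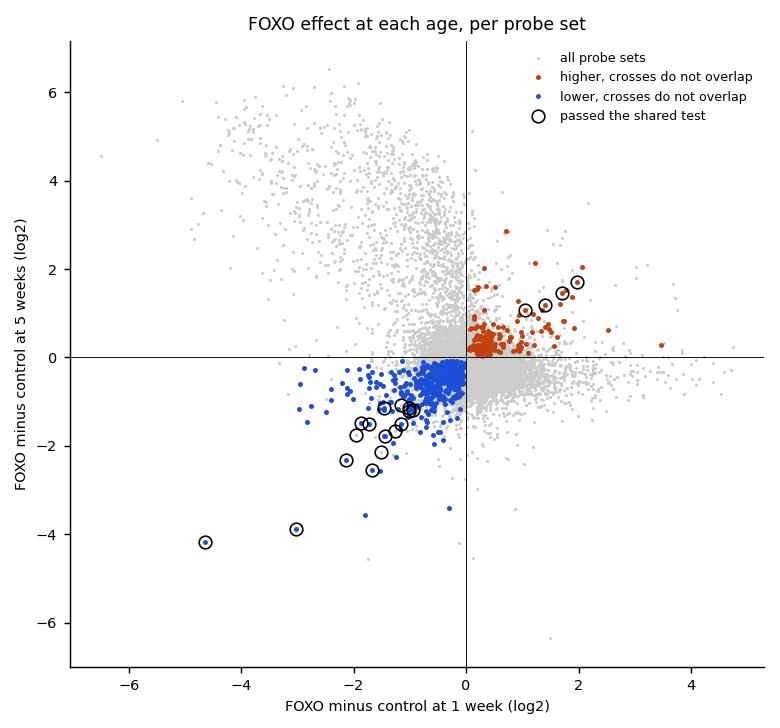
Log2 fold change of FOXO against control at 1 week (horizontal) and at 5 weeks (vertical) for all 18769 probe sets (grey). Members are coloured by direction and circles mark the 20 probe sets that passed the shared test. The circles lie near the line of equal effect, which that test favours. A cloud of other probe sets is lower at 1 week and higher at 5 weeks.

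Among members 78 passed at 1 week, 134 at 5 weeks and 29 (4.62%) passed the test of a difference between ages, where over all probe sets 4.33%, 10.4% and 9.41% passed. The rule for members used the same arrays, so nothing is read from these shares. Among the 29 were CG18585, Gr63a, ppk15 and Cyp6a17, which were lower at both ages and more so at 1 week. Gr63a, part of the receptor with which flies sense carbon dioxide, had log2 signals of 9.28 to 9.37 on all 4 control arrays, 7.43 and 6.98 in young FOXO hearts and 8.50 and 8.44 in older FOXO hearts. The control arrays of both ages lay close together and the FOXO arrays were lowest at 1 week. The log2 fold changes were -2.12 at 1 week (limma adjusted p = 0.000927) and -0.83 at 5 weeks (adjusted p = 0.0255). Cyp6a17, a cytochrome P450, had 6.41 and 6.61 in young controls, 4.36 and 4.80 in older controls, 3.89 and 3.47 in young FOXO hearts and 3.15 and 3.09 in older FOXO hearts. Its log2 fold change was -2.83 at 1 week (adjusted p = 0.000694) and -1.46 at 5 weeks (adjusted p = 0.00387).

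Most members differed by small amounts. Their median log2 fold change was 0.45 for higher and -0.48 for lower members, with 26 above 1 and 72 below -1. The gap between the crosses had a median of 0.08, was under 0.1 in 357 members, and exceeded 0.5 in 42 and 1 in 11. Their median signal of 6.45 was near the 6.16 of all probe sets, and 36.6% of members were among the dimmest 40% of probe sets. At an unadjusted p under 0.05 there were 494 of the 628 members, and 1594 of all 18769 probe sets. The rule for members uses the same arrays and favours a small p, so nothing is read from this count. A wider rule, no overlap within each age in the same direction, took 1697 probe sets, 394 higher and 1303 lower.

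The members were next read by gene family, with families picked out after their values were seen. Family counts are to be read against all genes, of which 2.85% were lower members and 0.901% higher members. For counts after quantile normalization or centring no such share over all genes is given here. Glutathione S-transferases join glutathione to reactive and foreign compounds. Of 11 measured genes of the GstD group 4 were lower members, GstD2, GstD3, GstD7 and GstD10 (36.4%, against 2.85% of all genes). After quantile normalization 7 were, and 6 with centring. None passed limma over all genes, 7 had an unadjusted p under 0.05 in the lower direction (7.41% of all genes did), and the group's median was -0.97 against -0.02 over all genes. GstD3 had log2 signals of 11.86 and 11.83 in young controls, 11.62 and 11.78 in older controls, 10.86 and 11.38 in young FOXO hearts and 10.18 and 10.10 in older FOXO hearts, a value of -1.14 ± 0.21 (adjusted p = 0.187). GstD10 stood at -1.01 ± 0.16 (adjusted p = 0.14). GstD5, whose signal lay at 8.11 and 8.16 in control 1 week and 11.55 and 11.69 in control 5 weeks, overlapped over the ages and yet was lower in FOXO within each, at -1.18 ± 0.17 (adjusted p = 0.131). GstD1 stood at -0.12 ± 0.09 (adjusted p = 0.745). Several of these genes are closely related copies, so their probe sets may share signal.

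In the GstE group 3 of 13 genes (23.1%) were lower members, GstE2, GstE3 and GstE4, 6 had an unadjusted p under 0.05 in the lower direction, and the median was -0.37. The median signal of the group was 10.26 on FOXO 1 week replicate 1, the array with oocyte transcripts, and 11.14 to 11.32 on the other 7 arrays, FOXO and control. GstE2 had log2 signals of 10.44 to 10.55 on the control arrays, 9.15 and 10.11 in young FOXO hearts and 9.90 and 9.98 in older FOXO hearts, a value of -0.71 ± 0.21 (limma adjusted p = 0.423). The remaining glutathione S-transferases, 10 genes, had a median of -0.05 and 1 lower member, GstO2. UDP-glycosyltransferases held 4 lower members of 35 genes (11.4%), the fallen Ugt36E1 with Ugt35B1, Ugt35C1 and Ugt37B1. The family had 1 higher member, Ugt303B3, and a median of -0.11. Ugt37B1 had 8.24 to 8.45 on the control arrays and 5.66 to 5.79 on 3 FOXO arrays, while FOXO 1 week replicate 2 stood at 8.12, and its value was -2.04 ± 0.51 (adjusted p = 0.323).

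Cytochromes P450, which oxidise hormones, fatty acids and foreign compounds, had 5 lower members of 81 genes (6.17%, against 2.85% of all genes). These were Cyp6a17, Cyp6t3, Cyp12c1, Cyp9b2 and Cyp6g1, and the family's median was -0.22, with 67 of 81 below 0. With array medians centred 1 of the 81 was a lower member. The family's median signal was 8.29 on FOXO 1 week replicate 1 and 9.26 to 9.40 on the other 7 arrays. Aldehyde oxidases had 2 lower members of 4, AOX2 at -0.84 ± 0.14 (limma adjusted p = 0.162) and AOX3, or 1 with centring. Serpins, inhibitors of serine proteases, had 3 of 27 (11.1%), Spn38F, Spn42Dc and Spn55B, or 5 with centring, and a median of -0.25. The medians of the families named here stayed below 0 after quantile normalization. Centring lowers every log2 fold change by the same amount, so it could not bring them above 0.

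Values of digestive enzymes were mostly below 0. Maltases split sugars in the gut, and 5 of 10 were lower members, Mal-A1, Mal-A4, Mal-A7, Mal-A8 and Mal-B1, with a median of -0.56 and 7 at an unadjusted p under 0.05 in the lower direction. With centring 3 of the 10 were lower members. Over all genes 2.85% were lower members, and 7.41% had an unadjusted p under 0.05 in the lower direction. Mal-B1 had log2 signals of 8.21 to 8.52 on the control arrays, 6.03 and 7.78 in young FOXO hearts and 7.37 and 7.55 in older FOXO hearts, a value of -1.18 ± 0.35 (limma adjusted p = 0.424). The Jonah proteases, digestive enzymes of the midgut, had 3 lower members of 13, Jon44E, Jon74E and Jon99Fi, and all 13 values were below 0 with a median of -0.25 (12 of 13 were below 0 after quantile normalization). At 1 week 8 of 13 were below 0 and at 5 weeks 13. The median signal of the proteases was 4.38 and 4.43 in young controls and 4.41 and 4.61 in young FOXO hearts, so the group as a whole was not lower at 1 week. Jon44E had 6.94 to 7.30 on the control arrays, 5.69 and 5.78 in young FOXO hearts and 6.27 and 6.40 in older FOXO hearts, a value of -1.06 ± 0.18 (adjusted p = 0.164).

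Gut and fat body markers were read beside these enzymes. The gut list (6 of 7 measured, Jon44E among them) had 5 of 6 values below 0. Its summed signal on the log2 scale was 8.83 to 8.98 in control 1 week and 8.23 to 8.24 in FOXO 1 week, but 10.38 to 10.59 in older controls and 10.53 to 10.88 in older FOXO hearts. The median of the gut list, in contrast, was lower in older FOXO hearts, at 6.22 and 6.55 against 6.97 and 7.31 in older controls. Values below 0 numbered 6 of 6 at 1 week and 5 of 6 at 5 weeks. The fat body list (5 of 5) had a summed signal of at least 14.32 in all groups, with Lsp2, a storage protein, at 10.43 and 10.46 in control 5 weeks and 7.62 to 8.33 on the other 6 arrays. No marker was at 0, since array signals have a background. Their part in the differences of the enzymes was not tested.

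**Figure D5:**
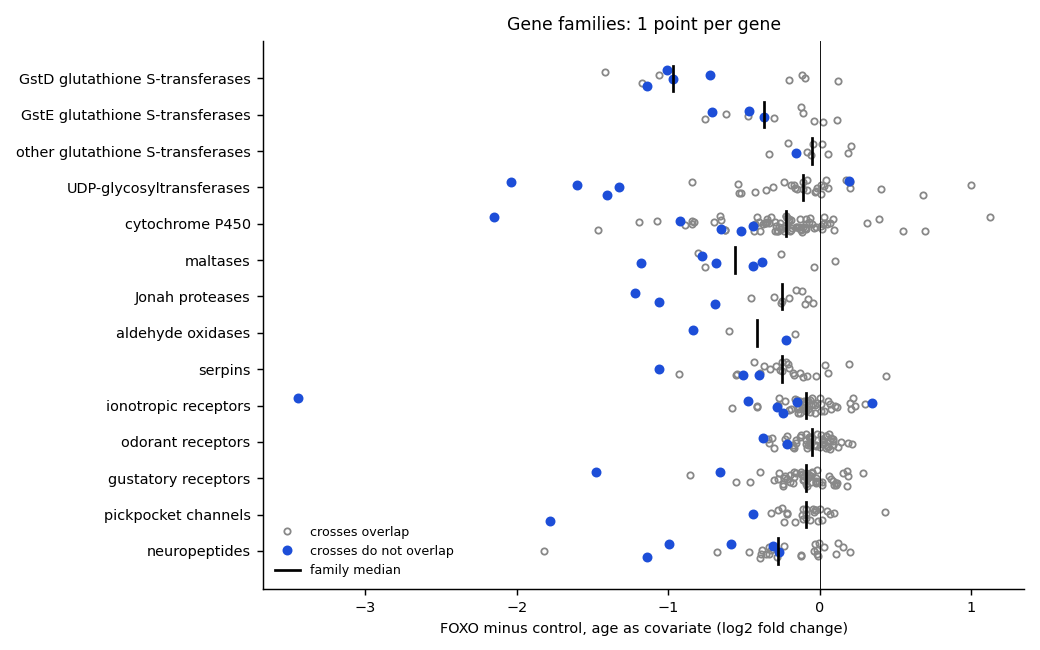
Shared log2 fold change of FOXO against control (horizontal) for each measured gene of 14 families, 1 point per gene with random vertical scatter. Filled points are genes whose crosses do not overlap, open points overlap, and black bars are family medians, lowest in the GstD group (-0.97) and the maltases (-0.56).

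Neuropeptides and sensory receptors supplied a further set of members. Of 30 measured neuropeptide genes 5 (16.7%, against 2.85% of all genes) were lower members, Pdf, Lk, Eh, Ilp2 and Ilp5. Dh44 fell as described above. The median was -0.27, with 25 of 30 below 0 (17 at 1 week and 27 at 5 weeks). At an unadjusted p under 0.05 there were 10 in the lower direction, where 7.41% of all genes were. Ilp5, an insulin-like peptide of brain neurosecretory cells, had log2 signals of 5.95 and 5.44 in young controls, 5.49 and 4.98 in older controls, 4.55 and 4.61 in young FOXO hearts and 4.20 and 4.52 in older FOXO hearts, a value of -0.996 ± 0.176 (limma adjusted p = 0.177). Pdf, the neuropeptide of clock neurons, had 4.83 and 4.96 in young controls, 6.55 and 6.57 in older controls, 4.57 and 4.40 in young FOXO hearts and 4.79 and 4.59 in older FOXO hearts. Its difference lay mainly at 5 weeks, where the log2 fold change was -1.87 (adjusted p = 0.000135), against -0.42 at 1 week (adjusted p = 0.23).

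Neuron markers had values below 0 as well. The list (3 of 4 measured) had 3 of 3 values below 0: nSyb, a synaptic vesicle protein, at -0.80 ± 0.23 (limma adjusted p = 0.404), elav, an RNA-binding protein of neurons, at -0.38 ± 0.14 (adjusted p = 0.546), and brp, of the presynaptic active zone, at -0.21 ± 0.17 (adjusted p = 0.757). Its summed signal was 10.36 to 10.63 in control 1 week, 9.73 to 10.24 in FOXO 1 week, 9.95 to 10.06 in control 5 weeks and 9.38 to 9.69 in FOXO 5 weeks, so it was lower in FOXO within each age. No marker was at 0, and the part of nerve tissue in the neuropeptide values was not tested. Lower members made up 2 of 56 odorant receptors, 2 of 56 gustatory receptors and 2 of 27 pickpocket sodium channels (3.57%, 3.57% and 7.41%), against 2.85% of all genes. With centring 0 odorant receptors were lower members.

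Gene lists for the functions named in the title held few members. The lists do not hold the lysosomal Ect3 and GILT3 or the RING finger protein Rnf11, which were members and passed as described above. None of the 26 measured proteasome subunits was a member, none passed limma, none had an unadjusted p under 0.05, and their median was 0.04. Prosalpha5, a subunit of the core, stood at 0.08 ± 0.09 and Rpt5, an ATPase of the cap, at 0.08 ± 0.09. The signs turned with the scaling, from 20 of 26 above 0 to 25 of 26 below 0 once array medians were centred. Among 26 ubiquitin conjugation genes vih, an E2 enzyme of mitosis, was a higher member at 1.03 ± 0.33 (limma adjusted p = 0.475), with 8.54 on FOXO 1 week replicate 1, the array with oocyte transcripts, and 7.21 to 7.44 on the other FOXO arrays. The 25 autophagy and 22 lysosome genes had 0 members, 0 calls by limma, 0 at an unadjusted p under 0.05 and medians of -0.06 and 0.01, the second turning to -0.10 with centring, where 1 autophagy gene was a lower member.

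Of 26 cytosolic chaperone genes none was a member or passed limma, and 2 had an unadjusted p under 0.05 in the lower direction, Hsc70-1 (-0.40 ± 0.14, adjusted p = 0.502) and Hsf, the heat shock factor (-0.21 ± 0.09, adjusted p = 0.577). The absence of members depends on the scaling, as 5 of the 26 were lower members with array medians centred. Of 22 genes of folding and stress in the endoplasmic reticulum 1 was a lower member, Sil1, an exchange factor of the chaperone BiP, and 3 were with centring. Sil1 had log2 signals of 9.91 and 9.89 in young controls, 10.19 and 10.36 in older controls, 9.01 and 9.35 in young FOXO hearts and 9.83 and 9.88 in older FOXO hearts, a value of -0.57 ± 0.12 (limma adjusted p = 0.259) with a gap of 0.01. In that list 4 genes had an unadjusted p under 0.05, all lower, and Ero1L, a thiol oxidase (-0.42 ± 0.09, adjusted p = 0.287), and Gp93, an HSP90 chaperone (-0.42 ± 0.10, adjusted p = 0.308), were among them.

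None of 20 listed fly FOXO targets was a member or passed limma, and 1, the adipokinetic hormone gene Akh (-0.38 ± 0.16, adjusted p = 0.574), had an unadjusted p under 0.05. InR, the insulin receptor, stood at -0.52 ± 0.28 (limma adjusted p = 0.657), with 8.42 on FOXO 1 week replicate 2 and 7.34 to 7.69 on the other FOXO arrays. Of 9 insulin pathway genes the 2 members were Ilp2 and Ilp5. The 11 measured TOR pathway genes held no member and no unadjusted p under 0.05. With centring their median of 0.11 turned to -0.0044 and 1 was a lower member.

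Antioxidant and detoxification genes, a list that holds the GstD and several GstE genes, had 8 lower members of 37 (21.6%), 12 at an unadjusted p under 0.05 in the lower direction and none in the higher, and none that passed limma. The member that is not a transferase was Gclm, a subunit of the enzyme that starts glutathione synthesis, at -0.51 ± 0.18 (adjusted p = 0.516). In the same list the catalase gene Cat (-0.04 ± 0.09, adjusted p = 0.909) and the mitochondrial superoxide dismutase Sod2 (-0.04 ± 0.12, adjusted p = 0.933) stood near 0.

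Heart muscle genes held few members as well. Of 25 sarcomere genes 1 was lower without overlap, TpnC73F, a troponin C, at -0.23 ± 0.09 (limma adjusted p = 0.549). In this list 22 of 25 values were below 0 with a median of -0.16 (23 of 25 with centring, which lowers all values alike). In that list 5 had an unadjusted p under 0.05 in the lower direction, among them sls, the titin relative (-0.49 ± 0.15, adjusted p = 0.458). Among 27 genes of calcium handling and ion channels 6 had an unadjusted p under 0.05, all lower, with Ca-alpha1T, a T-type calcium channel (-0.62 ± 0.21, adjusted p = 0.508), Shal, a potassium channel (-0.53 ± 0.19, adjusted p = 0.528), and SK, a calcium-activated potassium channel (-0.36 ± 0.11, adjusted p = 0.469), and 0 members.

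Of 17 cardiac transcription factors nau, the fly MyoD relative, was a lower member and lbe, a homeobox factor, a higher one. The log2 signals of nau were 4.41 and 4.74 in control 1 week, 4.80 and 4.90 in control 5 weeks, and 3.97 to 4.08 in FOXO, a value of -0.69 ± 0.12 (limma adjusted p = 0.178). Those of lbe were 3.71 to 3.90 in control and 4.16 to 4.35 in FOXO, a value of 0.41 ± 0.10 (adjusted p = 0.309), and both genes are dim on these arrays. In that list 15 of 17 values were below 0.

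The mitochondrial ribosome list had 66 of 69 values above 0, with a median of 0.13, and no member. None passed limma, and 4 had an unadjusted p under 0.05, all higher, among them mRpS31 (0.59 ± 0.22, adjusted p = 0.546) and mRpS26 (0.43 ± 0.16, adjusted p = 0.526). With array medians centred 28 of the 69 were below 0 and the median was 0.02. The list's median signal was 10.99 on FOXO 1 week replicate 1, the array with oocyte transcripts, and 10.68 on replicate 2. In young controls it was 10.63 and 10.65. At 5 weeks it was 10.23 and 10.54 in FOXO hearts and 10.28 and 10.36 in controls. Values below 0 numbered 9 at 1 week and 16 at 5 weeks. Mitochondrial respiration had 1 lower member of 31, ND-B12 of complex I, which had 12.39 and 12.26 in control 1 week, 11.65 and 11.69 in control 5 weeks and 11.40 to 11.43 in FOXO (-0.59 ± 0.15, adjusted p = 0.323).

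The other lists passed in no gene by limma. Glycolysis and glycogen (18 genes) had 0 members and 2 genes at an unadjusted p under 0.05, both lower, with Glys, glycogen synthase, at -0.50 ± 0.09 (adjusted p = 0.188). Citric acid cycle and fatty acid oxidation (14), lipid storage and synthesis (19), and activin and TGF-beta genes (16) had 0 members and 0 at that p. Basement membrane and matrix (19) had 0 members and 1 at that p, Pxn, peroxidasin (-0.64 ± 0.21, adjusted p = 0.476). Antimicrobial peptides and immunity (22) likewise had 0 members and 1 at that p, AttD (-0.71 ± 0.29, adjusted p = 0.569). The Turandot and JAK-STAT list (10) had TotE as a lower member and 4 at that p, all lower, led by TotC (-0.88 ± 0.15, adjusted p = 0.164). In the shorter list of 42 cytochromes P450 4 were lower members. With centring 1 immunity gene was a lower member, no Turandot gene was, and 1 of these P450 genes was. At an unadjusted p under 0.05, 7.41% of all genes were lower and 2.19% higher, which is the background for each of these counts.

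Some members were neighbours on the chromosomes. Of 448 member genes, among 11889 with a place in the reference annotation, 49 lay in 23 runs of adjacent measured genes that differed in the same direction, 21 runs lower and 2 higher. The next measured gene was a lower member for 24 of 340 lower members (7.06%) and for 2.87% of all genes, and a higher member for 2 of 107 higher members (1.87%) and for 0.901% of all genes. Members of 1 family often lie side by side, and this difference was not tested. Runs of 3 were GstE2, GstE3 and GstE4, then dan, CG13653 and CG13654, and also spdo, Jon99Fi and PH4alphaSG2. Pairs included GstD2 with GstD3, Mal-A7 with Mal-A8, AOX2 with AOX3, and Fie with Gr63a. Ir76a stood beside the lower member CG14102 (-0.97 ± 0.26, limma adjusted p = 0.353), and Ect3 beside the higher member CG3397. CG3397 had log2 signals of 7.91 to 8.63 on the control arrays, 9.12 and 10.33 in young FOXO hearts and 10.17 and 10.24 in older FOXO hearts, a value of 1.68 ± 0.31 (adjusted p = 0.194). The crosses differ in 1 parent line, so an effect of FOXO and an effect of that parent's chromosomes cannot be told apart.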

How the data were processed

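Hearts were profiled on 8 Affymetrix arrays, and the values used are the log2 signals the authors deposited, 1 per probe set. The sources used here do not say how probes were summarised or normalized, and limma is named, with no version, in the submitters' processing notes. Of 18952 probe sets 183 were array controls, and 18769 were tested. A single symbol was given for 13647, several for 402 and none for 4720, and the reference table (assembly Release 6 plus ISO1 MT) held 13544 of the single ones.

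Fits used limma 3.58.1 in R 4.3.3. A model of cross plus age (5 residual degrees of freedom) gave the shared effect, and a model with 1 mean per group (4 residual degrees of freedom) gave the effect at each age and their difference. Tests were moderated and two-sided, with Benjamini-Hochberg adjustment over all 18769 probe sets and a threshold of 0.05. The first model takes a difference of the effect between ages as spread. Genes were represented by their probe set of highest mean. The number of arrays limits the precision. The procedure was also run on simulated data with independent normal noise and no effect of age. That run does not cover effects that differ between ages or arrays that stand apart, as found here.

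Named genes were members with 1 symbol that passed, up to 15 per direction and filled to 10 by p, with foxo and up to 4 genes per list by p. Members, lists and alternatives were chosen with earlier results of these data known. Alternatives were quantile normalization, centred medians, dim probe sets left out, eBayes with trend and robust, arrayWeights, the average of both age contrasts, a replicate block, 1 probe set per gene, an adjusted p under 0.1 and each array left out. Chosen after seeing the data were the families, the fit without both FOXO 1 week arrays and the count without probe sets that follow sperm, yolk or oocyte markers.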

Additional observations from a re-analysis of the deposited data

Results flagged for a closer look

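The results here are genes named above, or among the 4 with the smallest p of their list or family, whose FOXO effect passed limma's test of a difference between 5 weeks and 1 week. Values are the log2 effect at 5 weeks minus that at 1 week. Members that were lower at both ages, less so at 5 weeks, were CG18585 (1.80, limma adjusted p = 0.0014), Gr63a (1.29, adjusted p = 0.0167), Cyp6a17 (1.37, adjusted p = 0.0325) and ppk15, a sodium channel gene, with 2 probe sets (2.36, adjusted p = 0.00103, and 1.26, adjusted p = 0.0291). Pdf was lower mainly at 5 weeks (-1.45, adjusted p = 0.00358). Genes that were no members and had a lower value in FOXO at 5 weeks, without passing at 1 week, were Cyp6g2 (-1.96, adjusted p = 0.0137), GstE10 (-1.21, adjusted p = 0.016) and Gr43a, a fructose receptor (-0.95, adjusted p = 0.0139). Higher at 5 weeks were Atg8b (6.49, adjusted p = 2.14e-05), ACXC (4.01, adjusted p = 0.000107) and ACXB (1.79, adjusted p = 0.0231). Atg8b, the autophagy gene of the male germline, had log2 signals of 9.11 and 9.42 in FOXO 5 weeks, 6.72 and 6.66 in control 1 week and at most 5.27 on the other 4 arrays, the same arrays on which the late spermatogenesis list was high.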

How the results depend on the processing

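The count of 20 calls was within 1.5 times of itself without the dimmest 40% of probe sets (21) and at an adjusted p under 0.1 (27). It was 13 after quantile normalization, 7 with centred array medians, 4 with trend and robust estimation, 10 with 1 probe set per gene, 142 with arrayWeights and 1168 with the average of both age contrasts. It was 92 without the probe sets that follow sperm, yolk or oocyte markers (12761 tested), a filter that an effect equal at both ages can hardly meet and that says nothing of the accessory gland markers, and 4278 without both FOXO 1 week arrays. With single arrays left out it ranged from 1 to 154. The labels share replicate numbers and state no pairing. Correlations of same-numbered deviations ran from 0.01 to 0.33, highest between control and FOXO at 5 weeks. With 2 arrays per group they cannot settle whether the samples were paired. With a replicate block 1 call was made. The share of calls that were higher was 20% as reported, 15.4% after quantile normalization and 0% with centred medians. It was 71.2% (832 of 1168) with the average of both age contrasts, which turns the majority, and 41.7% without both FOXO 1 week arrays. Of the members 60 were higher with centred medians and 174 after quantile normalization, against 152 as reported. Centring moved the median log2 fold change of all probe sets from -0.04 to -0.15. The 20 probe sets kept their direction in every alternative run, of which 1624819_s_at passed in all 17 and Ir76a in 11 of 18. Causes of these shifts were not tested.

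The number of members was 632 after quantile normalization and 561 with centred medians, 868 to 2166 with single arrays left out, 7363 without both FOXO 1 week arrays and 1697 without overlap within each age. With fewer arrays the rule is easier to meet. Precision is limited by 2 arrays per group, and dim genes such as lbe and nau lie near the low end of the signal.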
